A study of Homo sapiens with 10 samples.

Results

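SAMHD1 and 9 enzymes that make, salvage or clean up deoxynucleotides were followed across T47D spheroids with and without a SAMHD1 knockout. These 10 genes (SAMHD1, RRM1, RRM2, RRM2B, TK1, TK2, DCK, DGUOK, TYMS and DUT) were chosen by name for their place in the pathway, and all 10 were among the 13920 genes of the count table. Spheroids are small three-dimensional aggregates, and the study's methods describe growing them to day 4. The labels name the cells as T47D, a line known as oestrogen receptor positive luminal breast cancer, grown as spheroids. Several markers that define such cells were near 0 in all 10 libraries, ESR1 among them, as given with the other markers below, so T47D is used here as the name in the labels. The series holds 4 libraries of wild-type (WT) cells, from experiments 10, 11, 15 and 16, 4 libraries of the SAMHD1-knockout (KO) clone A1 from those experiments, and 2 libraries of the KO clone A2 from experiments 15 and 16. The knockout was made with a CRISPR-Cas9 plasmid aimed at exon 5 of SAMHD1, and no treatment was added in any group. The study's methods give biological duplicates of 2 KO clones, as 4 KO replicates, and name no experiment pairs. The series holds more KO libraries than that, and the libraries of a group within a pair are taken here as biological duplicates. The labels call each KO line a clone, and an origin from 1 cell is not stated in the sources used here. An effect of losing SAMHD1 cannot be told apart from other features of a clone where only 1 clone carries it. Experiments 10 and 11 are called the first pair below and experiments 15 and 16 the second pair, and clones were set against the WT libraries of their own pair.

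Deoxynucleoside triphosphates (dNTPs) are the building blocks of DNA. Ribonucleotide reductase makes them de novo from ribonucleotides, thymidylate synthase supplies the thymidine branch, and deoxynucleoside kinases salvage deoxynucleosides taken up or released inside the cell. SAMHD1 works in the opposite direction, splitting dNTPs into deoxynucleosides and triphosphate, and it is best known for limiting retroviral infection of resting myeloid and T cells and for removing the active form of some nucleoside drugs.

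The exon at which the guide was aimed is shown because every comparison rests on it. It is exon 5 of the 16 exons of SAMHD1, chr20:36930760-36930875 on the minus strand of GRCh38, 116 bases long with 47.4% G or C, and it lies in the part that codes for the catalytic HD domain. The guide itself was not analysed here.
SAMHD1 exon 5: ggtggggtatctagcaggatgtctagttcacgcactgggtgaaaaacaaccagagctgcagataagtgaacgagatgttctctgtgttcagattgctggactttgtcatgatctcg

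The promoters of SAMHD1 and TK1 are shown because these were the members for which each KO value fell below each WT value. Both are the 250 bases before the start site in RefSeq (GRCh38.p14), at chr20:36951709-36951958 and chr17:78187205-78187454, each on the minus strand. Capitals mark CCAAT boxes (CCAAT) and GC boxes (GGGCGG), found on either strand.
SAMHD1 promoter: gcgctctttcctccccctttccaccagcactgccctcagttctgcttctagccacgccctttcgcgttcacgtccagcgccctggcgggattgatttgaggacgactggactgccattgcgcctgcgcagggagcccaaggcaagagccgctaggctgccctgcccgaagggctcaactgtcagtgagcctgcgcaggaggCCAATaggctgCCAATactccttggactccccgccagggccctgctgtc
TK1 promoter: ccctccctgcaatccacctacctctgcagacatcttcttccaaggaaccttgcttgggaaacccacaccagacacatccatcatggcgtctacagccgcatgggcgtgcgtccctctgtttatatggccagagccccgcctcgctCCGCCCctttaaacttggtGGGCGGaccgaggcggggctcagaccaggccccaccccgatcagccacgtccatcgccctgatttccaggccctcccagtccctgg
SAMHD1 carried 2 CCAAT boxes and no GC box, whereas TK1 carried 2 GC boxes and no CCAAT box, so these letters were not shared between them. Of the 9 members with a promoter in the RefSeq table, 4 had a CCAAT box and 4 a GC box, against 34.9% and 67.2% of the promoters of 11366 counted genes. An E2F motif, searched as TTTCCCGC, TTTGGCGC, TTTCGCGC or TTTGCCGC on both strands, was found in 1 of the 9 (TYMS) and in 4.48% of all promoters. The cell cycle motif TTTGAA was found in 1 of the 9 (RRM1) and in 8.39% of all promoters. No match of these motifs overlapped another in the members' promoters.

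The libraries held 40077369 to 51311482 counted reads, with 7.79% to 13.9% of them on mitochondrial genes and the highest share in clone A1 of experiment 15. Levels below are CPM after TMM scaling, that is, read counts brought to a common library size and corrected for composition. In the first pair, the WT library of experiment 10 lay closer to both clone A1 libraries (chi-square per gene of 10.1 and 8.51) than to the WT library of experiment 11 (25.1). The luminal markers went in part against the label. Of the 9, the oestrogen receptor gene ESR1 was at 0.183 to 1.59 CPM over all libraries, the epithelial adhesion genes EPCAM and CDH1 at 0.348 to 1.78 and 0.684 to 2.16 CPM, and the keratin KRT8 at 3.1 to 9.07 CPM, while KRT19 was not listed. KRT18 (36.3 to 60.3 CPM), GATA3 (15.4 to 24.8), PGR (15.4 to 20.7) and FOXA1 (14.1 to 26.8) made up most of the summed level of the 8 listed, which was 113.3 to 129.6 CPM in WT, 106.4 to 118.1 CPM in clone A1 and 101.7 to 105.6 CPM in clone A2. CDH2 (N-cadherin) and VIM (vimentin), looked up after these values were seen, were at 117.7 to 158.4 and 1175 to 1518 CPM. The low ESR1, EPCAM and CDH1 levels held in WT and KO libraries, and the identity of the cells was not tested further. Of 10 immune markers 3 were listed, with a sum of at most 3.28 CPM in any library, and 2 of 4 endothelial markers reached at most 1.92 CPM. Of 6 fibroblast markers, COL1A1 and COL3A1 were listed, and their sum was 18.8 to 26.3 CPM in WT, 11.7 to 18.6 CPM in clone A1 and 12.05 to 13.1 CPM in clone A2. In bulk RNA, fewer cells carrying a transcript and less transcript per cell cannot be told apart.

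**Figure D1:**
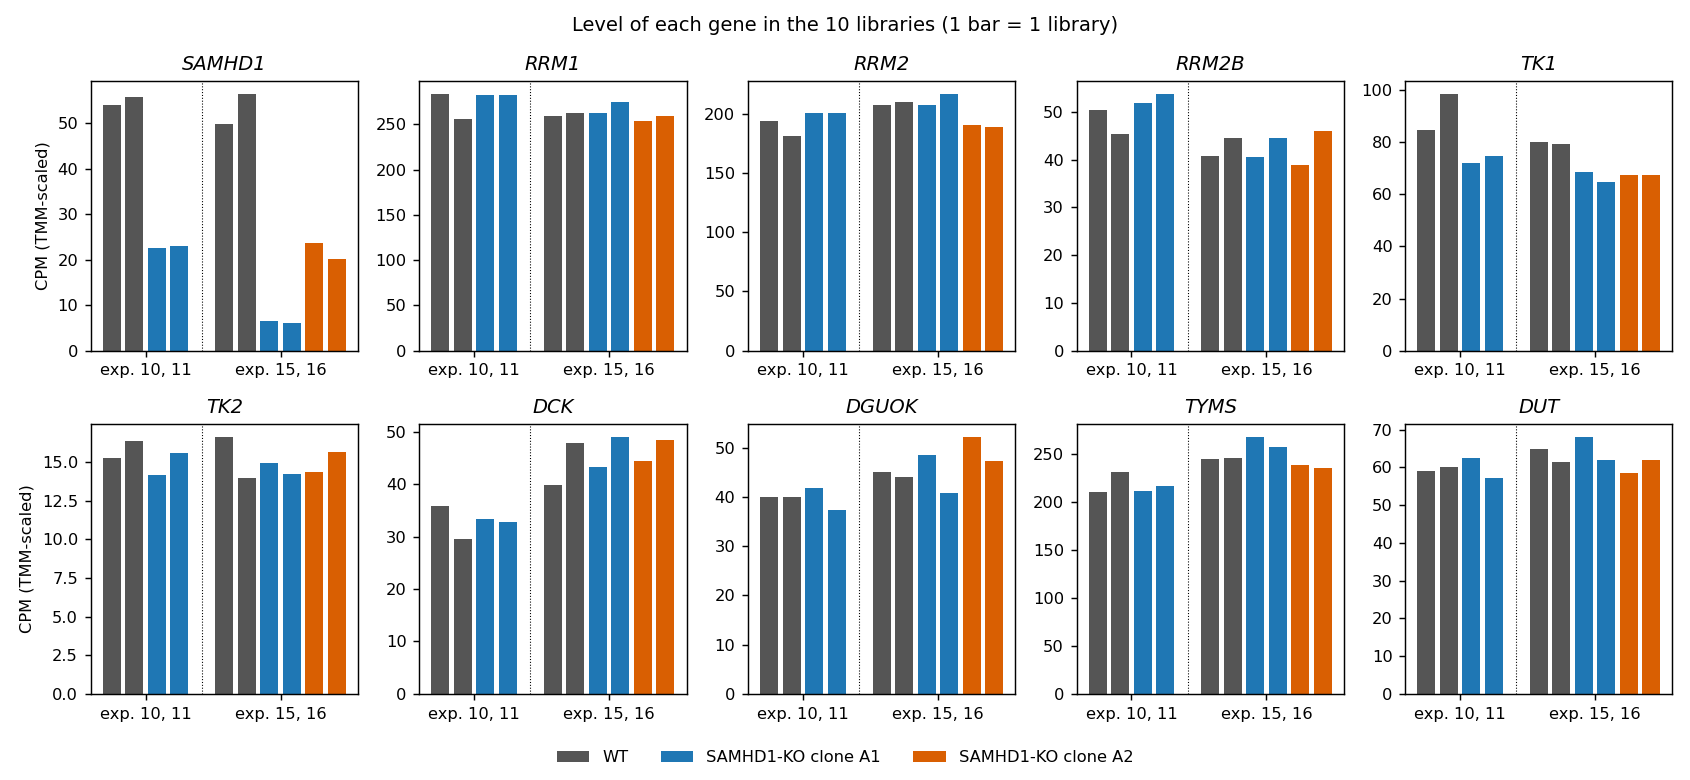
Level of each of the 10 genes in each of the 10 libraries, in CPM after TMM scaling, with 1 bar a library, grouped by experiment pair and coloured by WT, clone A1 and clone A2. SAMHD1 was 49.8 to 56.4 CPM in WT and 6.15 to 23.6 CPM in the KO libraries, and the 6 KO bars of TK1 all end below its 4 WT bars. DCK and TYMS were lower in experiments 10 and 11 than in 15 and 16, as were 15.5% of all genes.

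SAMHD1 (Gene ID 25939, chr20:36889773-36951708), the targeted gene, was read first as a check of the labels. Its level reached 53.9, 55.7, 49.8 and 56.4 CPM in the WT libraries (experiments 10, 11, 15 and 16). In clone A1 it was 22.5, 22.99, 6.44 and 6.15 CPM in the same order, and in clone A2 it was 23.6 and 20.2 CPM in experiments 15 and 16. All 6 KO libraries lay below all 4 WT libraries, as their labels say, yet every KO library still held SAMHD1 reads, with at least 268 counts. A count per gene does not show whether the remaining transcript codes for protein.

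The size of the loss differed between clones and between experiment pairs. In the second pair, clone A1 held 0.119 of the WT level (log2 fold change −3.08, SE 0.102, edgeR adjusted p = 1.34e-11), the fourth largest absolute log2 fold change of the 13920 genes. Clone A2 held 0.411 of it (log2 fold change −1.28, SE 0.0902, edgeR adjusted p = 2.2e-07). The direct comparison placed clone A2 3.47-fold above clone A1 (log2 difference 1.79, SE 0.104, edgeR adjusted p = 4.14e-08). In the first pair, clone A1 held 0.415 of the WT level (log2 fold change −1.27, SE 0.0899, edgeR adjusted p = 6.59e-07), so that clone A1 there lay between the levels of the 2 clone A2 libraries.

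The change of the clone A1 effect from the first to the second pair was −1.81 on the log2 scale (SE 0.135, 95% interval −2.1 to −1.52, edgeR adjusted p = 1.2e-06). WT itself differed by −0.04 between the pairs (SE 0.0865, 95% interval −0.227 to 0.139, edgeR adjusted p = 0.768). The 129 counted genes within 10 Mb on either side of SAMHD1 had median log2 fold changes of 0.0107 (clone A1, second pair), 0.0186 (clone A2) and −0.0258 (clone A1, first pair), far smaller than the differences of SAMHD1 itself. SAMHD1 passed the test in 6 of 7 comparisons, the exception being WT against WT, and did so under each alternative that was run.

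Per length, SAMHD1 was one of the less abundant members. Levels were divided by the exon length of the reference transcript, and given as CPM per kilobase (mean ± SD of 4 WT libraries). TYMS stood highest at 144.6 ± 10.2, followed by RRM1 at 84.5 ± 3.97, RRM2 at 60.8 ± 4.15 and TK1 at 59.7 ± 6.26. DGUOK (39.4 ± 2.51) and DUT (28.7 ± 1.19) came next, and then DCK (15.3 ± 3.07), SAMHD1 (11.6 ± 0.638), RRM2B (9.47 ± 0.831) and TK2 (3.22 ± 0.251). The WT ranges of RRM2 and TK1 overlapped, as did those of DCK and SAMHD1, and the other neighbours in this order did not overlap. SAMHD1 ranked 7 or 8 of the 10 in WT libraries, 9 in clone A1 of the first pair and in clone A2, and 10 in clone A1 of the second pair. With coding length in place of exon length, RRM2 and TK1 moved above RRM1, DUT above DGUOK and RRM2B above SAMHD1.

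**Figure D2:**
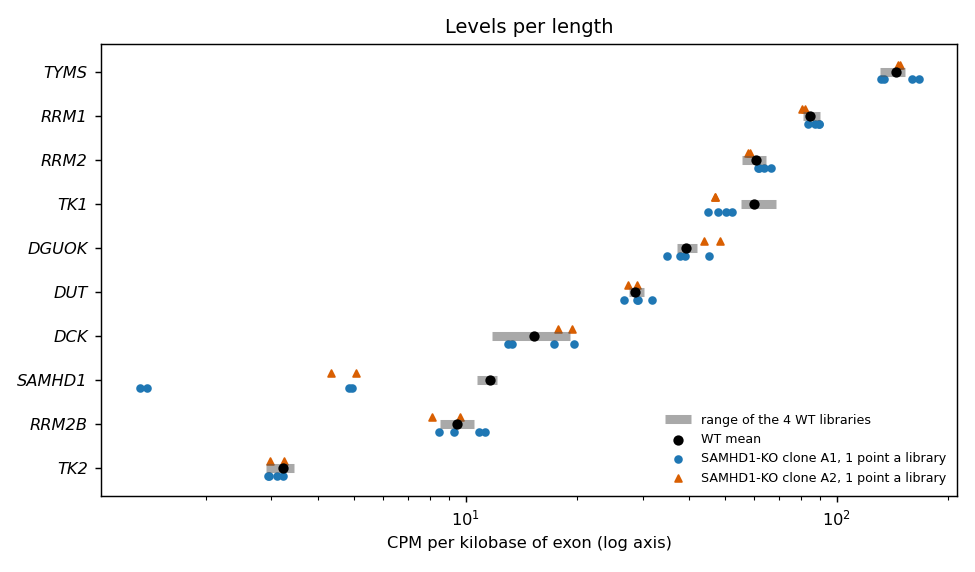
Level per length of each gene in CPM per kilobase of exon (log axis), with the range of the 4 WT libraries as a grey bar, the WT mean as a black point, and each clone A1 library (blue circles) and clone A2 library (orange triangles) beside it. The members spanned 3.22 (TK2) to 144.6 (TYMS) CPM per kilobase in WT, and SAMHD1 in the KO libraries fell to between 1.32 and 5.07.

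Among the de novo enzymes, no member passed the test in a KO clone against WT. RRM1 (chr11:4094685-4138932), the large catalytic subunit of ribonucleotide reductase, was 284, 256, 260 and 263 CPM in WT of experiments 10, 11, 15 and 16, and 282, 282, 262 and 275 CPM in clone A1. In clone A2 it was 254 and 259 CPM. Clone A1 overlapped WT in both pairs and both clone A2 values lay just below WT, but the highest RRM1 value was only 1.12-fold the lowest over all 10 libraries, and clone A2 differed from WT by −0.03 (95% interval −0.166 to 0.109). All 4 KO values of the second pair lay below both WT values for 17.4% of all genes. The clone A2 values alone did so for at least that share.

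RRM2 (chr2:10122568-10211010), the small subunit that cells use in S phase, was 193, 181, 207 and 210.0 CPM in WT. It was 201, 200.5, 207.5 and 217 CPM in clone A1, above both WT values in the first pair, and 190.3 and 188.5 CPM in clone A2. Both clone A2 libraries lay below the 4 other libraries of the second pair, without passing the test against WT (log2 fold change −0.14, SE 0.0625, 95% interval −0.272 to −0.00791, edgeR adjusted p = 0.145) or against clone A1 (−0.16, SE 0.0625, edgeR adjusted p = 0.191). The shares of all genes set apart like RRM2 in either pair were not counted. The ratio of RRM2 to RRM1 per kilobase was 0.658 to 0.771 over all libraries, with 0.724 and 0.702 in clone A2 and 0.761 to 0.771 in the other libraries of that pair.

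RRM2B (chr8:102204501-102238961), the small subunit induced by p53 that serves cells outside S phase, was 50.3, 45.3, 40.7 and 44.6 CPM in WT. It was 51.8, 53.8, 40.4 and 44.5 CPM in clone A1 and 38.9 and 46.1 CPM in clone A2. Clone A1 lay above WT in the first pair and overlapped it in the second, as clone A2 did. The share of all genes set apart in that way in the first pair was not counted. Its largest difference from WT was 0.14 on the log2 scale, in clone A1 of the first pair (SE 0.0911, 95% interval −0.0498 to 0.336, edgeR adjusted p = 0.561). In WT, RRM2 per kilobase was 5.63 to 7.47 times the level of RRM2B.

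TYMS (chr18:657653-673578), thymidylate synthase, was 211, 231, 245 and 246 CPM in WT, 212, 217, 268 and 258 CPM in clone A1 and 238.5 and 235.5 CPM in clone A2. All 4 libraries of the first pair lay below all 6 of the second, which held for 15.5% of all genes. In the second pair both clone A1 values lay above both WT values and both clone A2 values below them, but neither clone passed against WT (0.10 and −0.05, edgeR adjusted p = 0.396 and 0.654). All 4 KO values of that pair lay above both WT values for 18% of all genes and below them for 17.4%. For 1 clone alone the shares are at least as large. Clone A2 lay below clone A1 in the second pair by 0.15 on the log2 scale without passing the test (log2 difference −0.15, SE 0.0639, 95% interval −0.285 to −0.0148, edgeR adjusted p = 0.25). TYMS overlaps ENOSF1 and TYMSOS, and whether the counting used the strand of the reads is not given in the sources used here, so reads of the overlap may be shared.

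DUT (chr15:48331095-48343373), which splits dUTP and so both supplies dUMP to thymidylate synthase and keeps uracil out of DNA, was 59.2, 60.0, 64.9 and 61.4 CPM in WT. It was 62.5, 57.2, 68.0 and 61.9 CPM in clone A1 and 58.5 and 61.9 CPM in clone A2. The groups overlapped in both pairs, and none of its log2 fold changes against WT was further from 0 than −0.07 (clone A2, 95% interval −0.228 to 0.0916).

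TK1 was the salvage enzyme that differed between WT and both clones. TK1 (Gene ID 7083, chr17:78174079-78187204), the cytosolic thymidine kinase made in S phase, was 84.5, 98.4, 79.8 and 79.1 CPM in WT of experiments 10, 11, 15 and 16. It was 72.1, 74.8, 68.5 and 64.5 CPM in clone A1 and 67.3 and 67.2 CPM in clone A2. Every KO library lay below every WT library, as did only 0.862% of the 13920 genes. Within each experiment, the KO value differed from WT by −0.397 to −0.222 on the log2 scale, lower in 6 of 6 comparisons.

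In the second pair TK1 fell in clone A1 to 0.837 of WT (log2 fold change −0.26, SE 0.0768, edgeR adjusted p = 0.0485) and in clone A2 to 0.846 of WT (−0.24, SE 0.0766, edgeR adjusted p = 0.0408). The clones differed from each other by 0.02 (95% interval −0.146 to 0.179, edgeR adjusted p = 0.946). With both clones averaged, TK1 stood at −0.25 (SE 0.0658, edgeR adjusted p = 0.017). In the first pair the difference was −0.32 (SE 0.0762, 95% interval −0.479 to −0.156) and did not pass the test (edgeR adjusted p = 0.154). It passed with a replicate block by experiment, which sets each clone library against the WT library of its own experiment (−0.31, edgeR adjusted p = 0.00448, where 2.74% of all genes passed), and with DESeq2 (−0.32, adjusted p = 0.0323, where 0.453% of all genes passed). With the block, 382 genes passed in that comparison, against 27 without it. With the block, SAMHD1 and TK1 were again the 2 members that passed in clone A1 and in clone A2 of the second pair, where 17.3% and 26.4% of all genes passed. Without the block, the change of the clone A1 effect between pairs did not pass (0.06, 95% interval −0.168 to 0.289, edgeR adjusted p = 0.841).

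The clone A1 call stood close to the threshold: with RLE scaling its adjusted p was 0.0527, and with a mean count of at least 10 it was 0.0505. It was also lost on leaving out any 1 clone library or either WT library of the second pair, the highest adjusted p being 0.252 without clone A1 of experiment 16. The clone A2 call was likewise lost on leaving out either WT or either clone A2 library of that pair, or either clone A1 library of the first pair, the highest adjusted p being 0.187 without WT of experiment 15. In the first pair, TK1 passed without WT of experiment 10 (−0.43, adjusted p = 0.00274), while it stood at −0.20 without WT of experiment 11 (adjusted p = 0.616) and at −0.29 without clone A1 of experiment 10 (adjusted p = 0.947). The 169 counted genes within 10 Mb of TK1 had median log2 fold changes of −0.13 in clone A1 and −0.08 in clone A2 of the second pair and −0.16 in clone A1 of the first, so TK1 differed from its neighbours' median by −0.131, −0.157 and −0.155. The part of the neighbourhood, of the fibroblast markers and of the mitochondrial share in the TK1 difference was not tested. Set against TYMS, the other source of thymidylate, the ratio of TK1 to TYMS per kilobase was 0.452, 0.48, 0.367 and 0.363 in WT, 0.383, 0.389, 0.288 and 0.282 in clone A1 and 0.318 and 0.322 in clone A2. KO lay below WT in this ratio within each pair, and the ratio was also lower in the second pair than in the first for WT and for clone A1.

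TK2 (chr16:66508003-66550291), the mitochondrial thymidine kinase, was 15.2, 16.3, 16.6 and 13.96 CPM in WT, 14.2, 15.6, 14.9 and 14.2 CPM in clone A1 and 14.3 and 15.6 CPM in clone A2. Its values overlapped between all groups, and its 95% intervals against WT spanned −0.307 to 0.199. Whether it differed from TK1 in its response was not tested.

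DCK (chr4:70993649-71030914), deoxycytidine kinase, which salvages deoxycytidine and purine deoxynucleosides and activates nucleoside drugs such as cytarabine, was 35.8, 29.6, 39.8 and 48.0 CPM in WT. It was 33.4, 32.7, 43.3 and 49.0 CPM in clone A1 and 44.5 and 48.4 CPM in clone A2. All libraries of experiments 10 and 11 lay below all of experiments 15 and 16, which held for 15.5% of all genes. KO and WT overlapped within each pair. DCK was the member that passed the test between the WT pairs (log2 difference 0.43, SE 0.105, 95% interval 0.206 to 0.648, edgeR adjusted p = 0.0113), where 16.4% of all genes passed. That call was lost without WT of experiment 11 (0.30, adjusted p = 0.075) or of experiment 16 (0.28, adjusted p = 0.18). The 45 counted genes within 10 Mb of DCK had a median of 0.40 between the WT pairs, and DCK stood 0.0252 above that median. The part of the neighbourhood in the DCK difference was not tested.

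DGUOK (chr2:73926880-73958946), the mitochondrial kinase of purine deoxynucleosides, was 39.97, 40.1, 45.2 and 44.1 CPM in WT, 41.9, 37.4, 48.6 and 40.8 CPM in clone A1 and 52.2 and 47.3 CPM in clone A2. Both clone A2 values lay above both WT values of their pair, as held for at least 18% of all genes, the share with all 4 KO values above WT. The difference did not pass the test (log2 fold change 0.16, SE 0.0899, 95% interval −0.0337 to 0.347, edgeR adjusted p = 0.269).

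**Figure D3:**
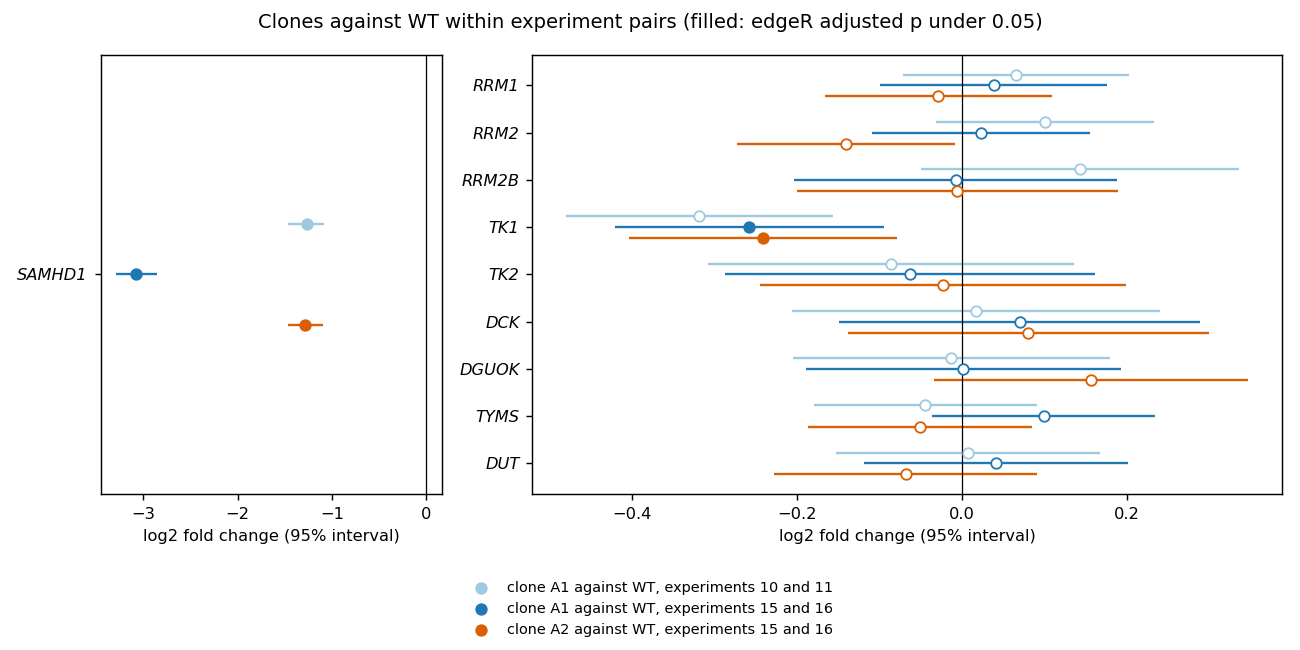
Log2 fold change of each gene against WT of the same experiment pair, with the 95% interval from the edgeR fit, for clone A1 in experiments 10 and 11 (light blue), clone A1 in 15 and 16 (blue) and clone A2 in 15 and 16 (orange), with filled points for adjusted p under 0.05 and SAMHD1 on an axis of its own. SAMHD1 was lower in all 3 comparisons (−1.27, −3.08 and −1.28), TK1 was between −0.24 and −0.32, and the intervals of the other 8 genes reached 0 or lay within 0.01 of it.

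Over the whole group, 2 of the 10 genes (SAMHD1 and TK1) passed the test in clone A1 of the second pair, where 8.24% of all genes passed, and the same 2 in clone A2, where 16.4% did. With both clones averaged it was again SAMHD1 and TK1, against 15.6% of all genes. SAMHD1 alone passed in clone A1 of the first pair (0.194% of all genes; TK1 joined it with the block), between clone A2 and clone A1 (4.14%), and in the change of the clone A1 effect (2.5%). Leaving SAMHD1 aside as the targeted gene, 1 of 9 enzymes passed against WT, which is near the share of all genes. For the 8 members other than SAMHD1 and TK1, the 95% intervals against WT in the second pair lay between −0.287 and 0.289 in clone A1 and between −0.272 and 0.347 in clone A2. The median log2 fold change of the 10 genes was 0.01 in clone A1 and −0.04 in clone A2, beside medians of 0.00314 and 0.00707 over all genes.

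The other genes of the pathway are read against the 8.24% of all genes that passed in clone A1 of the second pair and the 16.4% that passed in clone A2. With the replicate block these shares were 17.3% and 26.4%, and its counts are given where they differ by over 1.5 times. An unadjusted p under 0.05 was found for 22.5% of all genes in clone A1 and 29.4% in clone A2, and DESeq2 called 9.53% and 17%. Medians of the counted genes within 10 Mb on either side are given beside some genes as a description, and the part of the neighbourhood in any of these differences was not tested. Of 15 other genes of dNTP synthesis and phosphorylation, none passed edgeR or DESeq2 in clone A1 of the second pair, 1 had an unadjusted p under 0.05, and the median log2 fold change was −0.03. In clone A2, DCTD, which deaminates dCMP to dUMP for thymidylate synthesis, rose (0.21, SE 0.066, edgeR adjusted p = 0.0372) and the other 14 did not pass, that is, 6.67% of the list did. The 42 counted genes within 10 Mb of DCTD had a median of 0.16 there. With the block 2 passed in clone A2. Of 10 genes of the folate cycle that feeds thymidylate synthesis, none passed against WT in either clone by edgeR or DESeq2, with medians of 0.0021 and 0.02 and an unadjusted p under 0.05 for 2 genes in each. With the block 1 fell in clone A1 and 2 in clone A2. Of 7 listed nucleoside transporters, none passed in either clone by either tool, with an unadjusted p under 0.05 for 2 in clone A1 and 1 in clone A2, and with the block 1 rose in each clone.

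Of 16 listed genes that break down dNTPs and deoxynucleosides, none passed edgeR in clone A1, where 1 passed DESeq2 and 3 had an unadjusted p under 0.05. In clone A2, UPP1, uridine phosphorylase, rose (0.43, SE 0.117, edgeR adjusted p = 0.0197), while NT5C2, a cytosolic nucleotidase, fell by 0.30 (SE 0.0759, edgeR adjusted p = 0.0133) and ADA, adenosine deaminase, fell by 0.27 (SE 0.0877, edgeR adjusted p = 0.0444). These 3 are 18.8% of the list, near the 16.4% of all genes. With the block 7 of 16 passed in clone A2 (3 higher, 4 lower), or 43.8% beside 26.4% of all genes. In clone A1 2 passed with it, or 12.5% beside 17.3%. The 134 counted genes within 10 Mb of NT5C2 had a median of −0.25 in clone A2, and the medians around UPP1 and ADA were 0.0115 and 0.0133. In clone A1 of the first pair UPP1 stood at −0.34, without passing the test (edgeR adjusted p = 0.369), and with the block it passed (edgeR adjusted p = 0.0411). The 7 thiol reductants listed are of the class that includes those returning ribonucleotide reductase to its active form. Among them, GLRX2 fell in clone A1 by 0.45 (SE 0.113, edgeR adjusted p = 0.0217) and TXN2 fell in clone A2 by 0.63 (SE 0.0738, edgeR adjusted p = 3.12e-05). Each is 1 of 7, or 14.3%, and with the block 2 of 7 passed in clone A1 (28.6%, beside 17.3% of all genes). GLRX2 and TXN2 are mitochondrial proteins and are not read here as reductants of ribonucleotide reductase. The 190 counted genes within 10 Mb of TXN2, on chromosome 22, had a median of −0.52 in clone A2, and the 57 around GLRX2 had a median of −0.21 in clone A1.

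Of 12 kinase, phosphatase and repair partners of SAMHD1, none passed edgeR or DESeq2 in clone A1 (unadjusted p under 0.05 for 2), and CDK6, a cyclin-dependent kinase that can phosphorylate SAMHD1, fell in clone A2 by 0.26 (SE 0.0823, edgeR adjusted p = 0.0394), 1 of 12 or 8.33%. The median of the 140 counted genes within 10 Mb of CDK6 was −0.23 in clone A2. With the block 1 rose and 1 fell in each clone, 16.7% of the list beside 17.3% of all genes in clone A1 and 26.4% in clone A2. TK1 and RRM2 are made in S phase, so 36 genes of G1/S and S phase were read beside them. In clone A1 of the second pair 2 of them fell (5.56%, below the 8.24% of all genes), MCM7, a helicase subunit, by 0.38 (SE 0.0612, edgeR adjusted p = 0.00127) and UHRF1, which maintains DNA methylation, by 0.39 (SE 0.0724, edgeR adjusted p = 0.00362), and 34 did not pass. In clone A2, MCM5 fell by 0.63, CDC45 by 0.50, MCM7 by 0.41 and UHRF1 by 0.42 (edgeR adjusted p = 8.52e-05, 1.63e-04, 2.8e-04 and 8.25e-04). In all 5 fell, 1 rose and 30 did not pass, so that 16.7% of the list passed beside 16.4% of all genes. With the block 5 fell in clone A1 (13.9%, beside 17.3% of all genes), and in clone A2 7 fell and 2 rose (25%, beside 26.4%).

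Of 24 genes of G2 and mitosis, KIF23, CENPF and KIF20A, all needed for chromosome segregation or cytokinesis, fell in clone A1 by 0.33, 0.30 and 0.22 (edgeR adjusted p = 0.0114, 0.011 and 0.0438), which is 12.5% of the list beside 8.24% of all genes. In clone A2, 5 fell, among them CENPF by 0.38, KIF23 by 0.38 and KIF11 by 0.37 (edgeR adjusted p = 9.26e-04, 0.00217 and 0.00291), and 1 rose, in all 25% of the list beside 16.4% of all genes. With the block 5 fell in clone A1, or 20.8% of the list beside 17.3% of all genes. The medians of this list were −0.07 in clone A1 and −0.12 in clone A2 of the second pair, and 0.08 in clone A1 of the first pair. In that first pair, without the block, no gene of these pathway, cell cycle, p53 and mitochondrial lists passed edgeR or DESeq2, and between 0 and 6 of each list had an unadjusted p under 0.05, as did 10.6% of all genes. With the block, where 2.74% of all genes passed, 3 of 18 p53 targets (16.7%), 2 of 15 genes of dNTP synthesis (13.3%), 2 of 36 genes of G1/S (5.56%) and 1 of 16 breakdown genes (6.25%) passed there. The genes within 10 Mb had median log2 fold changes of −0.19 around MCM7, −0.20 around UHRF1, −0.18 around KIF23 and −0.18 around CENPF in clone A1. In clone A2 the medians were −0.51 around MCM5 and −0.40 around CDC45, both on chromosome 22, and −0.22 around CENPF and KIF11. Around KIF20A the medians were 0.00645 in clone A1 and 0.0102 in clone A2, beside −0.22 and −0.24 for the gene itself.

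RRM2B is a p53 target, and of 18 genes of that kind AEN and FAS fell in clone A1 of the second pair by 0.39 and 0.33 (edgeR adjusted p = 0.00871 and 0.0225), or 11.1% of the list. In clone A2, SESN2 rose (0.33, edgeR adjusted p = 0.0152), CCNG1 and TP53INP1 fell by 0.29 each (edgeR adjusted p = 0.0289 and 0.0421), and 15 did not pass, so that 16.7% of the list passed. Of all genes 8.24% passed in clone A1 and 16.4% in clone A2. With the block 5 fell in clone A1 (27.8% of the list beside 17.3% of all genes), and in clone A2 6 fell and 2 rose (44.4% beside 26.4%). DESeq2 called 5 of the 18 in clone A2, where it called 17% of all genes. The median of the genes within 10 Mb was −0.18 around AEN and −0.11 around FAS in clone A1, and in clone A2 it was −0.00112 around CCNG1, 0.0214 around SESN2 and −0.0218 around TP53INP1. TK2 and DGUOK serve mitochondrial DNA, and of 11 genes of its upkeep TWNK, the mitochondrial helicase, fell in clone A1 by 0.49 (edgeR adjusted p = 0.00204) and in clone A2 by 0.37 (edgeR adjusted p = 0.00695). POLRMT, the mitochondrial RNA polymerase, fell in clone A1 by 0.31 (edgeR adjusted p = 0.0218). SSBP1, which binds single-stranded mitochondrial DNA, and RNASEH1 rose in clone A2 by 0.23 and 0.28 (edgeR adjusted p = 0.0231 and 0.0181). These are 2 of 11 in clone A1 (18.2%, beside 8.24% of all genes) and 3 of 11 in clone A2 (27.3%, beside 16.4%). With the block 6 of 11 passed in clone A2 (4 higher, 2 lower), or 54.5% beside 26.4% of all genes. The 99 counted genes within 10 Mb of SSBP1 had a median of 0.20 in clone A2, and the median around RNASEH1 was 0.0619. Around TWNK the medians were −0.17 in clone A1 and −0.24 in clone A2, and around POLRMT it was −0.20 in clone A1. TWNK was 61.4, 64.2, 48.5 and 53.7 CPM in WT and 66.4, 63.6, 35.8 and 37.1 CPM in clone A1. The groups overlapped in the first pair and were apart in the second, where at least 17.4% of all genes were lower without overlap.

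**Figure D4:**
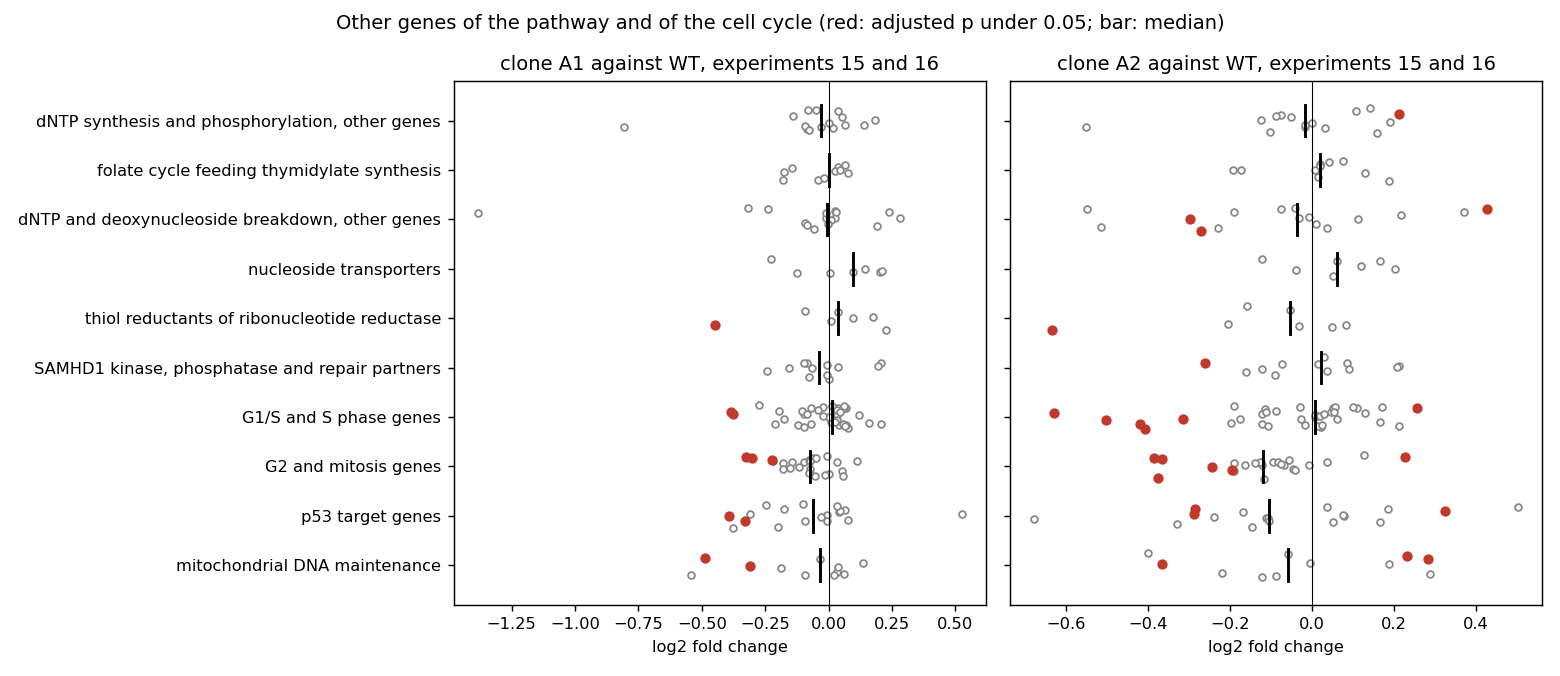
Log2 fold change against WT in experiments 15 and 16 of the genes of each pathway list, clone A1 on the left and clone A2 on the right, with 1 point a gene, red for adjusted p under 0.05 and a black bar at the list's median. The medians lay between −0.12 and 0.10 in both clones, and red points were few in each list and lay mostly below 0.

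Across the 10 libraries, TK1 was the member whose log2 CPM followed SAMHD1 most closely (Pearson r 0.788, Spearman rho 0.83), at place 188 of 13919 genes. These points share experiment pairs and clones, and the values of r are a description only. The 5 genes closest to SAMHD1 were EIF4A3 (0.946), MAGEE1 (0.939), GFRA3 (0.938), COL9A3 (0.936) and RTN4RL1 (0.928), and the 5 most opposed were CNN3 (−0.98), PLEKHH1 (−0.932), MEOX2 (−0.926), TMEM271 (−0.914) and NIPAL2 (−0.91). EIF4A3, a helicase of the exon junction complex, lies at chr17:80134369-80147128, within 10 Mb of TK1, in the neighbourhood whose medians are given above. The part of that neighbourhood in the r of TK1 and EIF4A3 with SAMHD1 was not tested.

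For RRM2 the 5 closest genes were SLC16A10 (0.952), ZNF652 (0.949), NPEPPS (0.928), SMIM19 (0.922) and KATNBL1 (0.917), and no other member of the group was among them. Within the group, RRM2B followed RRM1 (r 0.822) and ran opposite to DGUOK (−0.806) and TYMS (−0.795) over the same 10 libraries. RRM2 and RRM1, whose proteins join in 1 enzyme, had an r of 0.311.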

How the data were processed

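RNA-seq of 10 libraries was analysed. The authors prepared stranded poly(A) libraries, aligned the paired-end reads with HISAT2 to GRCh38 and removed genes with a count of 0 in any library; StringTie is also named in their processing notes, and the counting program and its strand setting are not given in the sources used here. The table deposited by the authors gives raw read counts for 13920 genes by NCBI gene ID, of which 13885 matched a symbol, with 40077369 to 51311482 counts per library and a lowest count of 1. Because of that filter a gene lost fully in any library would be missing from the table.

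Counts were scaled by TMM and tested in edgeR 4.0.16 (R 4.3.3) by quasi-likelihood on 5 cells (WT, clone A1 and clone A2 by experiment pair; 5 residual degrees of freedom). P-values were two-sided and adjusted by Benjamini-Hochberg over all 13920 genes, with a threshold of 0.05; 95% intervals come from the same fit. Groups and experiment numbers came from the sample titles. The experiment number in the titles pairs libraries of 1 experiment. Same-numbered libraries deviated together only weakly (r 0.0844 to 0.151), and values with that number as a replicate block are given where they change a call or move a count by over 1.5 times. The study's methods use DESeq2, which was run (1.42.0) as an alternative, as were RLE scaling, a mean count of at least 10, the replicate block, each pair alone, each library left out, and coding length. The step was tested on simulated data.

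All members were named in every comparison. Of each other list, genes passing against WT in at least 1 clone were named, at most the 4 smallest adjusted p per list and comparison, and for SAMHD1 and RRM2 the 5 genes with the highest and, for SAMHD1, the lowest r. The members and lists were chosen with earlier results of these data known; the 10 Mb neighbourhoods were added after the values were seen. Promoters came from RefSeq (GRCh38.p14), which matched 9 of 10 members.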

Additional observations from a re-analysis of the deposited data

Results flagged for a closer look

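SAMHD1 gave both results that stood out, each by a test of the difference itself. The effect of clone A1 on SAMHD1 changed between experiment pairs by −1.81 on the log2 scale: clone A1 held 22.5 and 22.99 CPM in experiments 10 and 11 and 6.44 and 6.15 CPM in experiments 15 and 16, while WT held 49.8 to 56.4 CPM. The cause was not tested.

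The clones also differed from each other in SAMHD1 within experiments 15 and 16, by 1.79 on the log2 scale, with 23.6 and 20.2 CPM in clone A2.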

How the results depend on the processing

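SAMHD1 kept its direction and its call under each alternative run in the 6 comparisons that involve a clone. TK1 stayed lower than WT throughout, and its call was lost in clone A1 of the second pair with RLE scaling and with a mean count of at least 10, leaving 1 member called in each, and in 8 of 10 fits that left out a library (−0.302 to −0.216, adjusted p 0.00689 to 0.252). In clone A2 it was lost in 6 of 10 such fits (−0.247 to −0.235, highest adjusted p 0.187) and with both clones averaged in 3 of 10. In the first pair TK1 passed with DESeq2 (−0.322, adjusted p 0.0323; 63 genes and 2 members called). DESeq2 called 533 genes for the change of the clone A1 effect, and a fit of 1 pair alone called 1834 genes in clone A1 of the second pair and 12 in the first. With the replicate block, genes called were 2411 (clone A1, second pair), 3673 (clone A2), 1213 (between clones), 3534 (both clones), 382 (clone A1, first pair, with 2 members, TK1 at −0.314, adjusted p 0.00448) and 1247 (change of the effect); DGUOK in clone A1 turned to −0.00391, and the block changed the call of no member but TK1 in the first pair. RRM2B between the clones, 0.00157 on the log2 scale, turned to −0.000486 (DESeq2), −0.000326 (RLE), −0.000664 (mean count), −0.00156 (block) and −0.000377 (pair alone). Leaving out 1 library each time, genes called ranged as follows: clone A1 against WT, second pair 343 to 2000, clone A2 against WT 1020 to 3199, clone A2 against clone A1 268 to 959, both clones against WT 658 to 3086, clone A1 against WT, first pair 7 (without clone A1 of experiment 10) to 1361 (without WT of experiment 10), change of the clone A1 effect 88 to 1123, WT between pairs 820 to 3658. Members called ranged from 1 to 2 in clone A1 of either pair, clone A2 and both clones, and from 0 to 3 for WT between pairs. Uncalled log2 fold changes that changed sign in such fits ranged as follows: clone A1 against WT, second pair, TK2 −0.187 to 0.0662, DCK −0.0544 to 0.213, RRM2B −0.0773 to 0.0615, DGUOK −0.132 to 0.123, DUT −0.031 to 0.108, RRM2 −0.00877 to 0.0517. For clone A2 against WT, TK2 −0.147 to 0.104, DCK −0.0467 to 0.223, RRM2B −0.132 to 0.111. For clone A2 against clone A1, RRM2B −0.129 to 0.118, DCK −0.0777 to 0.102, TK1 −0.0251 to 0.0585, TK2 −0.0256 to 0.0995. For both clones against WT, RRM1 −0.0113 to 0.0186, TK2 −0.167 to 0.0849, DCK −0.0506 to 0.218, DUT −0.0539 to 0.0276, RRM2B −0.0694 to 0.0622. For clone A1 against WT, first pair, DUT −0.0581 to 0.0696, RRM1 −0.00723 to 0.136, DCK −0.114 to 0.153, TYMS −0.115 to 0.0243, DGUOK −0.0971 to 0.0655. For change of the clone A1 effect, DCK −0.0843 to 0.196, RRM1 −0.0979 to 0.0458, TK1 −0.0538 to 0.172, TK2 −0.101 to 0.154, DGUOK −0.116 to 0.136, DUT −0.0359 to 0.1. For WT between pairs, RRM1 −0.118 to 0.0251, TK2 −0.182 to 0.0735, SAMHD1 −0.138 to 0.0383. DCK between WT pairs ranged from 0.284 to 0.565. Leaving out 1 of 2 libraries leaves a group with 1, assumed to vary like the others. Levels per coding length exceeded those per exon length for all 10 members, as the shorter length must give. With 2 libraries a group, differences within the 95% intervals could not be told from 0 or from each other, and sequencing depth was not varied.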

Other observations

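Of the 8 listed luminal markers, 2 passed in each clone of the second pair, KRT8 and FOXA1, which is 25% of the list beside 8.24% of all genes in clone A1 and 16.4% in clone A2. With the replicate block, 3 passed in clone A1 (1 higher, 2 lower) beside 17.3% of all genes, 4 in clone A2 (1 higher, 3 lower) beside 26.4%, and in clone A1 of the first pair 2 fell beside 2.74% of all genes passing, against 1 without the block beside 0.194%. DESeq2 called 3 in clone A1 of the second pair, where it called 9.53% of all genes. The calls added by the block were KRT18 in all 3 comparisons and GATA3 in clone A2, all lower. ESR1, EPCAM and CDH1, at 2.16 CPM or less in every library, did not pass against WT in either clone, with or without the block. KRT8, an intermediate filament keratin, was 9.07, 8.3, 6.86 and 7.74 CPM in WT of experiments 10, 11, 15 and 16, 4.04, 5.03, 4.94 and 4.04 CPM in clone A1 and 4.37 and 3.1 CPM in clone A2. It fell by 0.94 on the log2 scale in clone A1 of the first pair, by 0.70 in clone A1 and by 0.97 in clone A2 of the second (edgeR adjusted p = 0.0282, 0.0179 and 0.00104). KRT8 has processed copies in the genome, and how reads shared with them were counted is not given in the sources used here. FOXA1, a pioneer factor of oestrogen receptor binding, was 18.98 and 19.4 CPM in WT of the second pair, and it rose by 0.47 in clone A1 and by 0.32 in clone A2 (edgeR adjusted p = 0.00363 and 0.0217). FOXA1 in the first pair was 14.1 and 16.3 CPM in WT and 16.3 and 16.2 CPM in clone A1, a difference of 0.10 on the log2 scale that did not pass (edgeR adjusted p = 0.671).

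COL3A1, a fibrillar collagen, was 17.9, 15.3, 9.76 and 8.46 CPM in WT, 12.7, 12.03, 2.76 and 2.98 CPM in clone A1 and 1.66 and 2.38 CPM in clone A2. It fell by 1.66 in clone A1 and by 2.16 in clone A2 of the second pair (edgeR adjusted p = 6.8e-06 and 3.6e-07). In the first pair its log2 fold change was −0.42 without passing the test (edgeR adjusted p = 0.32), and the change of the clone A1 effect between pairs was −1.24 (edgeR adjusted p = 0.00387). COL1A1, the other fibrillar collagen listed, stood at −0.61 in clone A1 of the first pair without passing (edgeR adjusted p = 0.187), and passed with the block (−0.59, edgeR adjusted p = 0.011).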
